A study of Homo sapiens with 6 samples.

Results

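Homeobox transcription factors were compared between 2 human glioblastoma cell lines, T98G and U87MG, each measured on 3 Affymetrix expression arrays. The genes were chosen by symbol, from probe sets with 1 listed gene whose name belongs to the HOX clusters A to D, to the PAX, MEIS, PBX, DLX, LHX, MSX, IRX, OTX or EMX families, or to the sine oculis family, here SIX2, SIX3, SIX5 and SIX6. This gave 58 of the 11963 genes measured, 24 of them HOX genes and 34 of other families, read by 87 probe sets. Each gene was represented by its probe set with the highest mean over the 6 arrays. Of the 58, 56 code for protein, while MEIS3P1 is a pseudogene and PBX3-DT a long noncoding RNA that matched by name alone. The cells of both lines were grown in DMEM with serum, and no treatment is named in the labels. The series concerns death caused by G5, an inhibitor of ubiquitin isopeptidases. Per the labels, U87MG withstands apoptosis and dies by necrosis under G5, whereas T98G undergoes apoptosis. Each group is a single cell line, so what belongs to the line and what belongs to its death response cannot be told apart. Nothing in the labels says that the 3 arrays of a line came from separate cultures, so the spread behind each p-value may be technical.

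Most genes of these families encode transcription factors that bind DNA through a folded segment called the homeodomain, and they set regional identity in the embryo. Not every PAX protein carries a complete homeodomain, and the name homeobox genes is used here for all members. HOX genes lie in 4 clusters, and their order along a cluster, numbered from 1 at the anterior end to 13 at the posterior end, follows the body axis along which they act. The PBX and MEIS proteins, which carry a longer homeodomain of the TALE class, bind DNA together with HOX proteins. PAX, sine oculis, DLX, LHX, MSX and EMX genes act in the brain, eye, neural crest, kidney and limb, and IRX genes, also of the TALE class, pattern the neural plate and heart. The adult forebrain is known for little HOX expression, and HOX transcripts in glioma cells are widely described.

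Across probe sets with 1 listed gene, the correlation was 0.990 to 0.997 within a line and 0.927 to 0.932 between lines. The poly-A controls averaged 5.30 for U87MG replicate 3 and 6.10 to 6.84 elsewhere. Among 11 astroglial and glioma markers, VIM (14.59 ± 0.05 in T98G and 14.85 ± 0.05 in U87MG) and CD44 (13.93 ± 0.06 and 13.68 ± 0.14) were abundant. Of the 11, 2 were called higher in U87MG and 0 lower, and the differences ran from log2 -0.25 to 2.55. GFAP, which defines astrocytes, read 6.42 ± 0.04 and 6.52 ± 0.04, and S100B read 4.13 ± 0.16 and 4.23 ± 0.08, near the 3.32 to 4.03 of bacterial Trp control probe sets that match no human transcript. Of the markers of other cells, 1 of 4 neuronal genes (SNAP25) and 1 of 5 microglia or blood genes (CSF1R) were higher in U87MG, and 1 of 4 epithelial genes (KRT18) was lower. By limma 0 of 3 oligodendrocyte and 0 of 4 endothelial markers were called (1 and 0 had an unadjusted p under 0.05). Over all genes 13.6% were called, 6.56% higher and 7.01% lower in U87MG. The log2 of the summed neuronal levels was 12.92 to 13.14 on T98G arrays and 13.70 to 13.84 on U87MG arrays. For the microglia or blood markers it was 8.75 to 8.83 and 8.86 to 9.12. Of the 4 neuronal genes 2 had a difference below 0, as did 2 of the 5 microglia or blood genes (lowest log2 -0.25 and -0.21). The summed epithelial levels were 12.08 to 12.18 on T98G arrays and 8.13 to 8.16 on U87MG arrays. KRT18 (log2 -5.48) carried that sum, whereas EPCAM was higher in U87MG by less than 2-fold (log2 0.89, adjusted p = 0.00161), and CDH1 (log2 0.04) and KRT8 (log2 -0.25) did not pass the test. The part of other cell states in the differences below was not tested, and in bulk RNA fewer expressing cells and less RNA per cell cannot be told apart.

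Of the 58 homeobox genes, 7 were higher in U87MG and 10 were higher in T98G, where a called gene had a limma adjusted p under 0.05 and differed 2-fold or more. The 17 called genes compare with 13.6% of all genes called by the same rule, 6.56% higher and 7.01% lower in U87MG. The genes higher in U87MG were HOXB2, PAX6, PBX3, MEIS2, IRX5, DLX2 and LHX6, and those lower were HOXC10, HOXD10, HOXC13, MSX2, HOXD11, MSX1, MEIS1, DLX4, HOXC4 and LHX2. For 34 of the 58 genes the values of the lines did not overlap, beside 52.0% of all genes. A further 10 members passed the adjusted p alone and differed by less than 2-fold, 2 higher and 8 lower, beside 27.7% of all genes. The median difference, U87MG minus T98G, was log2 -0.11 over the members and log2 -0.01 over all genes, and the median size of the difference was 0.31 and 0.26. All 17 genes stayed called when each array was left out in turn.

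**Figure D1:**
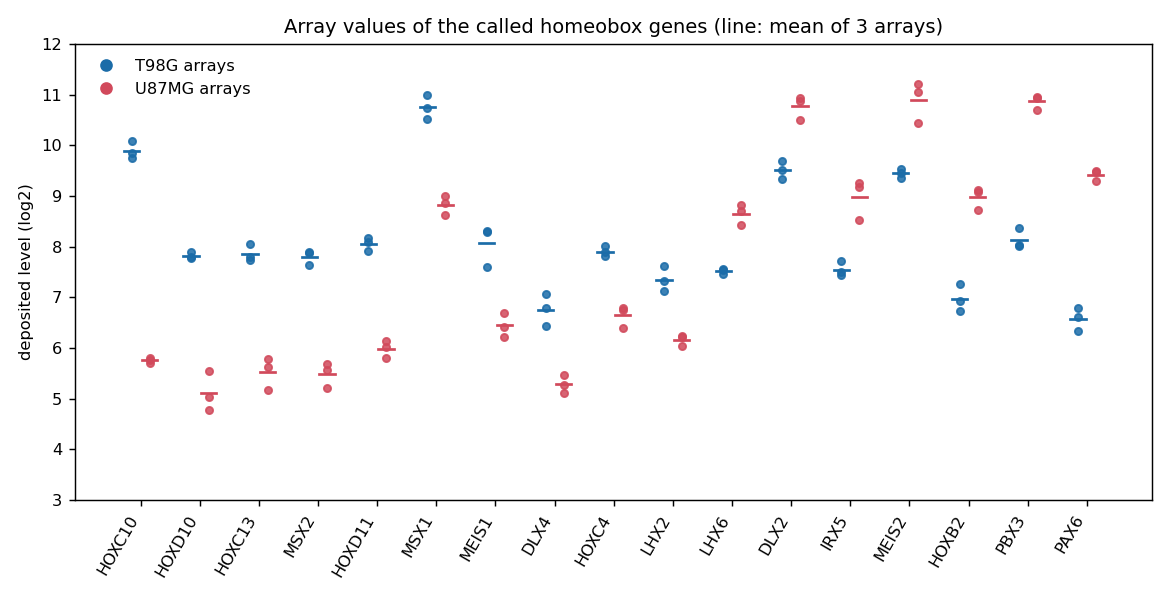
Deposited log2 level of the 17 called homeobox genes on each array, T98G in blue and U87MG in red, with a short line at the mean of 3 arrays; genes are ordered by their difference. The 3 arrays of one line lie apart from those of the other for every gene shown, from HOXC10 at log2 -4.14 to PAX6 at log2 2.84.

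Among the HOX genes analysed, 4 posterior genes of clusters C and D were higher in T98G. Of 11 HOXA genes only HOXA2 was analysed, so nothing is known here of posterior genes of cluster A. Of 24 HOX genes, 1 was higher and 5 were lower in U87MG, or 25.0% called, beside 13.6% of all genes. The median was log2 -0.25, beside log2 -0.01 over all genes. Among the 10 posterior genes (numbers 9 to 13), 0 were higher and 4 were lower, with 6 at an unadjusted p under 0.05. Of the 7 central genes (5 to 8) limma called 0, and 3 had an unadjusted p under 0.05, and the 7 anterior genes (1 to 4) had 1 higher and 1 lower. The difference between these stretches was not tested.

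In cluster C all 7 genes measured had a negative difference, from log2 -4.14 to -0.19, beside 6147 of all 11963 genes. Of the 7, 3 were called lower, or 42.9%, beside 7.01% of all genes called lower. HOXC10, which acts in the lumbar spinal cord and hindlimb, read 10.09, 9.74 and 9.85 on the T98G arrays and 5.81, 5.76 and 5.71 on the U87MG arrays. The groups were far apart, and the U87MG values lay within a narrow band. HOXC10 was 17.6-fold lower in U87MG (log2 -4.14, SE 0.11, limma adjusted p = 7.42e-09). HOXC13, the last gene of the cluster and a regulator of hair keratins, read 8.06, 7.79 and 7.74 in T98G and 5.63, 5.17 and 5.77 in U87MG. It was 5.07-fold lower (log2 -2.34, 95% interval -2.71 to -1.97), on 1 probe set whose identifier marks a possible match to several transcripts. HOXC11, between them in number, had arrays that overlapped, at 8.03, 8.02 and 8.08 in T98G against 7.48, 7.77 and 8.07 in U87MG. Its difference was log2 -0.27 (95% interval -0.60 to 0.05), an interval that shares no value with those of HOXC10 and HOXC13.

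The 3 anterior and central genes HOXC4, HOXC5 and HOXC6 lie side by side at the other end of the cluster. HOXC4 read 7.81, 7.89 and 8.02 in T98G and 6.76, 6.39 and 6.79 in U87MG, with no overlap. It was 2.39-fold lower (log2 -1.26, SE 0.13, adjusted p = 4.18e-05). HOXC6 was lower by less than 2-fold at log2 -0.73 (adjusted p = 0.00345), while HOXC5 had log2 -0.19 (95% interval -0.42 to 0.04) and HOXC8 log2 -0.24 (-0.46 to -0.02). With 1 RefSeq start taken per gene, HOXC4 and HOXC5 had the same start. The 250 bases before it are a single sequence, at chr12:54016638-54016887 of GRCh38.p14 on the plus strand. Transcripts of either gene that start elsewhere were not examined. The sequence is shown because the same window was listed for both genes, whose probe sets gave different differences. Whether the transcripts read by these probe sets begin at this start was not tested.
HOXC4 and HOXC5: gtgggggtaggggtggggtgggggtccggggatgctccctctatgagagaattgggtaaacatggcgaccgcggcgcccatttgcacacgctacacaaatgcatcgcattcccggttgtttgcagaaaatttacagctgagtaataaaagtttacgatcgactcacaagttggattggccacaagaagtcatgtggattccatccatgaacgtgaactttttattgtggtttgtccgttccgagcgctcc

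In cluster D, 2 of 7 genes were called lower (28.6%, beside 7.01% of all genes), and both lie next to each other. HOXD10, the number 10 gene like HOXC10, read 7.80, 7.78 and 7.89 in T98G and 5.04, 4.78 and 5.54 in U87MG. The groups did not overlap, and the U87MG arrays spread more widely than those of T98G. HOXD10 was 6.50-fold lower (log2 -2.70, SE 0.17, adjusted p = 1.50e-06). HOXD11, which acts in the limb and kidney, read 8.17, 7.92 and 8.09 in T98G and 5.80, 6.03 and 6.14 in U87MG, a 4.19-fold difference (log2 -2.07, SE 0.12, adjusted p = 7.86e-07). HOXD9, on the other side of HOXD10, was lower by less than 2-fold (log2 -0.69, 95% interval -0.95 to -0.44), with log2 0.01 on its second probe set. On the far side of HOXD11, HOXD12 had log2 0.03 (95% interval -0.22 to 0.28) and HOXD13 log2 0.00 (-0.25 to 0.25). HOXD12 read only 4.32 to 4.62 over all 6 arrays, not far above the control probe sets, so a change in HOXD12 may lie below what this probe set can measure. HOXD1 and HOXD4, at the anterior end, had log2 -0.14 and 0.14 and did not pass the test.

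The upstream sequences of HOXD10, HOXD11 and HOXD12 are shown because these neighbours are 2 genes that were lower and 1 that had no measured difference. They are the 250 bases before the RefSeq start in GRCh38.p14, on the plus strand of chromosome 2, at chr2:176116528-176116777, chr2:176107030-176107279 and chr2:176099545-176099794. Capitals mark a match to TGATNNAT, the letters that PBX and HOX proteins bind as a pair, read here on the opposite strand.
HOXD10: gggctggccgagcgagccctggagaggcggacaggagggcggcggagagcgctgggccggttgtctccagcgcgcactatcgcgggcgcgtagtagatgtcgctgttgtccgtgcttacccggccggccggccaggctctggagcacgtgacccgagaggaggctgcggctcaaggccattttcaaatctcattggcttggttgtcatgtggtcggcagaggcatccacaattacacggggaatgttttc
HOXD11: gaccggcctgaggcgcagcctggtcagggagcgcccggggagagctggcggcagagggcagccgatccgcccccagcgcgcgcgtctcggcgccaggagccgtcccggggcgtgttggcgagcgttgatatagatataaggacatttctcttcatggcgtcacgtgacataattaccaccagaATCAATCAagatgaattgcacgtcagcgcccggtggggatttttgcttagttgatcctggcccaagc
HOXD12: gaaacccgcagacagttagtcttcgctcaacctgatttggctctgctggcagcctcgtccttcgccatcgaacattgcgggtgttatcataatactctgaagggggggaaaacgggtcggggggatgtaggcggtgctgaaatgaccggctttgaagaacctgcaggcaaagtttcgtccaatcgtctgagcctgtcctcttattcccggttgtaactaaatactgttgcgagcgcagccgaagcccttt

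Only the HOXD11 window of these held the PBX-HOX letters, beginning 67 bases before the start. The RefSeq promoter table matched 33 of the 58 members, each with 250 bases before and 50 after the start. In both strands of those windows, TGATNNAT was found in 3 members (HOXA2, HOXB1 and HOXD11), or 9.09%, against 4.99% of the windows of 15843 protein-coding genes. The MEIS letters TGACAG were found in 6 members (18.2% against 14.7%) and TATAAA in 2 (6.06% against 9.63%), each motif being counted whether or not it overlapped another. The median ratio of observed to expected CG pairs was 0.846 in the members and 0.763 in all windows, and it ran from 0.0787 (PAX4) to 1.20 (MEIS2). These are descriptions of letters, and no binding or methylation was measured.

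Of the HOX genes analysed, the only one that was higher in U87MG lay in cluster B. HOXB2, which patterns the hindbrain, read 7.27, 6.73 and 6.93 in T98G and 8.73, 9.12 and 9.08 in U87MG. The arrays did not overlap, and HOXB2 was higher by log2 2.00 (SE 0.16, adjusted p = 6.95e-06). Its neighbours HOXB1 and HOXB3 had log2 -0.21 (95% interval -0.43 to 0.01) and log2 0.12 (-0.22 to 0.47). HOXB6 and HOXB9 were lower by less than 2-fold, at log2 -0.78 and -0.35, although a second HOXB6 probe set near the control values had log2 0.14. The remaining HOXB5, HOXB7, HOXB8 and HOXB13 ran from log2 -0.37 to 0.24 and did not pass the test. HOXB8 read only 4.63 to 4.95 over the arrays, so a change in it may likewise go unmeasured. For HOXB7 the brightest probe set had log2 0.24, while both other probe sets read log2 0.94 and 0.997, just short of 2-fold. In cluster A, HOXA2, another hindbrain gene and the only one of 11 HOXA genes analysed here, was lower by less than 2-fold. It read 5.39, 5.48 and 5.67 in T98G and 4.49, 4.68 and 4.99 in U87MG (log2 -0.79, 95% interval -1.11 to -0.47). HOXA2 and HOXB2, genes of the same number, thus lay on opposite sides of 0.

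**Figure D2:**
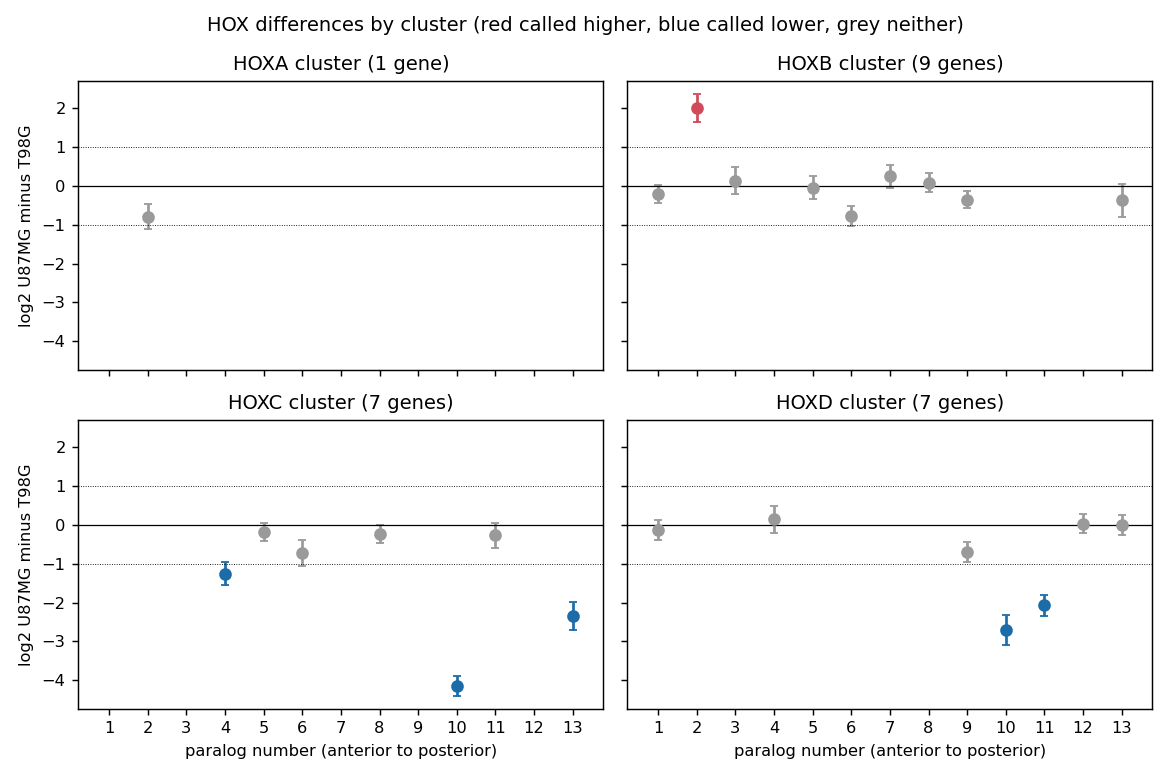
Log2 difference of each HOX gene, U87MG minus T98G, against its number along the cluster, with bars for the 95% interval and dotted lines at 2-fold; red genes were called higher, blue lower and grey neither. HOXC10, HOXC13, HOXD10 and HOXD11 lie lowest at the posterior end, and HOXB2 at log2 2.00 is the single red point.

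The HOX partner genes moved in opposite directions. PBX3, which encodes a TALE protein that helps HOX proteins bind DNA, read 8.01, 8.37 and 8.03 in T98G and 10.96, 10.93 and 10.70 in U87MG. All U87MG arrays lay above all T98G arrays, and PBX3 was 6.63-fold higher (log2 2.73, SE 0.13, adjusted p = 1.72e-07). PBX3-DT, transcribed away from the PBX3 start, had log2 -0.07 (95% interval -0.37 to 0.24) at levels of 4.29 to 4.66. PBX2, a close relative of PBX3, did not pass the test at log2 -0.35 (adjusted p = 0.0578), and its 4 probe sets were all negative, from log2 -0.53 to -0.33. Tested singly, 2 of the other PBX2 probe sets passed the adjusted p (0.00328 and 0.0246), short of 2-fold.

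MEIS1, which extends the complex of PBX and HOX proteins, read 8.31, 7.59 and 8.29 in T98G and 6.69, 6.42 and 6.23 in U87MG. T98G replicate 2 was the lowest of its line but still above every U87MG array. MEIS1 was 3.07-fold lower in U87MG (log2 -1.62, SE 0.20, adjusted p = 0.000143). MEIS2, its paralog, read 9.45, 9.35 and 9.53 in T98G and 11.04, 11.22 and 10.45 in U87MG, a 2.74-fold difference in the other direction (log2 1.46, SE 0.18, adjusted p = 0.000140). MEIS2 was read by 1 probe set, whose identifier marks a possible match to several transcripts. Both MEIS genes had arrays without overlap, and their 95% intervals, -2.07 to -1.16 and 1.05 to 1.86, lay on opposite sides of 0. The pseudogene MEIS3P1 was lower by less than 2-fold (log2 -0.72), on a probe set that can match related transcripts. IRX5, a TALE gene of heart and retina, was 2.71-fold higher in U87MG at 8.99 ± 0.41 against 7.55 ± 0.15, whereas IRX4 had log2 0.00 (95% interval -0.32 to 0.33).

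The 250 bases before the start of PBX3, at chr9:125747933-125748182 of GRCh38.p14 on the plus strand, are shown because, of the 12 called members with a window in the table, PBX3 held the MEIS letters. Capitals mark TGACAG read on the opposite strand, beginning 20 bases before the start.
PBX3: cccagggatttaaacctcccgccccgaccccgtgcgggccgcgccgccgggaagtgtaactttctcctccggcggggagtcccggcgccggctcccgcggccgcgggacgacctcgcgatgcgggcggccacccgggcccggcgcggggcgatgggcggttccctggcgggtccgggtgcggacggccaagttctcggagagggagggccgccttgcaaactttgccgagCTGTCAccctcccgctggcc

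Among 9 PAX genes, 1 was higher and 0 were lower in U87MG, with 3 at an unadjusted p under 0.05. This is 11.1% called, beside 13.6% of all genes. PAX6, a regulator of eye and forebrain progenitors, read 6.34, 6.79 and 6.60 in T98G and 9.47, 9.50 and 9.29 in U87MG. It had the largest positive difference of all 58 members at 7.16-fold (log2 2.84, SE 0.13, adjusted p = 1.51e-07), with no overlap of arrays, on 1 probe set that can match several transcripts. PAX8, of thyroid and kidney, was higher by less than 2-fold on its brightest probe set (log2 0.70, SE 0.11). All 8 PAX8 probe sets were positive, from log2 0.31 to 1.42, and 2 of them passed the 2-fold rule singly. PAX2, a relative of PAX8 that acts in the kidney and optic stalk, had log2 -0.21 on its brighter probe set and did not pass the test. Its other probe set read 6.64, 6.78 and 7.04 in T98G and 4.89, 4.97 and 5.02 in U87MG, a difference of log2 -1.86 that was called lower when probe sets were tested singly. PAX9, of teeth and thymus, was lower by log2 -0.54 (adjusted p = 0.0149), short of 2-fold. PAX1, PAX3, PAX4, PAX5 and PAX7 ran from log2 -0.22 to 0.12 and did not pass the test.

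Both MSX genes were lower in U87MG. MSX1, a repressor that acts downstream of bone morphogenetic proteins in neural crest and limb, read 10.74, 10.99 and 10.52 in T98G and 9.0, 8.86 and 8.63 in U87MG. It was 3.78-fold lower (log2 -1.92, SE 0.15, adjusted p = 5.01e-06), on 1 probe set whose identifier marks a possible match to several transcripts. MSX2, its paralog, read 7.63, 7.90 and 7.87 in T98G and 5.56, 5.68 and 5.21 in U87MG, a 4.99-fold difference (log2 -2.32, SE 0.14, adjusted p = 1.01e-06). Neither gene had overlapping arrays. A second MSX2 probe set fell further, from 7.61, 7.82 and 7.62 to 3.79, 3.90 and 3.71, below the highest control value of 4.03. The third MSX2 probe set read 3.75 to 4.05 on all 6 arrays, at the control level in both lines, where a difference cannot be measured. Both probe sets that fell carry identifiers for possible matches to several transcripts, and the call was lost when such probe sets were left out.

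DLX genes, which act in forebrain interneurons and jaw, had 1 higher and 1 lower of 4, beside 13.6% of all genes called. DLX2 read 9.68, 9.51 and 9.34 in T98G and 10.93, 10.87 and 10.51 in U87MG, without overlap, and was 2.40-fold higher (log2 1.26, SE 0.14). Its other probe set had log2 0.69, and the mean of both fell just short of 2-fold at log2 0.98. DLX4 was 2.77-fold lower at 5.29 ± 0.17 against 6.76 ± 0.32 (log2 -1.47, adjusted p = 7.09e-05). On its other probe set DLX4 had log2 -0.14, and the mean of both, log2 -0.80, was not past 2-fold. DLX5 was higher by log2 0.44 (adjusted p = 0.00560), short of 2-fold, and DLX6 had log2 0.09 (95% interval -0.16 to 0.35).

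LHX genes, which encode LIM homeodomain proteins, also had 1 higher and 1 lower of 5 (40.0% beside 13.6% of all genes). Both lay nearest the 2-fold threshold among called members. LHX6, of cortical interneurons, was 2.19-fold higher at 8.65 ± 0.21 in U87MG against 7.52 ± 0.05 in T98G (log2 1.13, adjusted p = 5.36e-05). LHX2, a regulator of cortex and hair follicle, was 2.28-fold lower at 6.16 ± 0.10 against 7.35 ± 0.25 (log2 -1.19, adjusted p = 7.79e-05), and its second probe set had log2 -1.85. LHX1, of kidney and head organizer, lay just outside the threshold at log2 -0.82 (95% interval -1.10 to -0.53), followed by HOXA2. LHX3 and LHX5 had log2 0.04 and 0.08. SIX2, SIX3, SIX5 and SIX6, which act in the eye, forebrain, muscle and kidney, had 0 of 4 called by limma, and EMX genes had 0 of 2 (0 in each family had an unadjusted p under 0.05). SIX2, of kidney progenitors, was furthest from 0 of its family at log2 -0.19 (95% interval -0.42 to 0.05), and EMX2, a cortical patterning gene, had log2 0.12 (-0.09 to 0.33) at 3.92 to 4.12, around the highest control value. OTX genes were not analysed here.

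**Figure D3:**
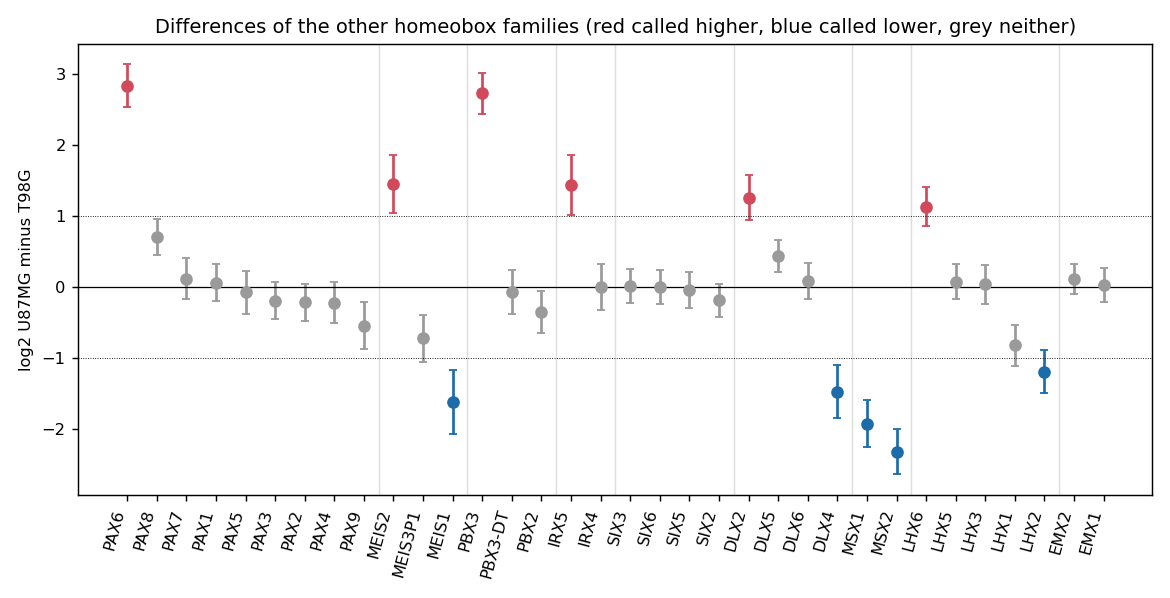
Log2 difference, U87MG minus T98G, of the 34 members outside the HOX clusters, grouped by family, with bars for the 95% interval and dotted lines at 2-fold; red genes were called higher, blue lower and grey neither. PAX6 and PBX3 stand highest, MSX2 and MSX1 lowest, and the SIX2, SIX3, SIX5, SIX6, EMX1 and EMX2 points lie near 0. SIX6 and EMX2 read close to the control level, where a difference may not show.

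How far a call rested on the choice of probe set was measurable for the 18 members with several probe sets. PAX2 ran from log2 -1.86 to -0.21, DLX4 from -1.47 to -0.14, PAX8 from 0.31 to 1.42 and HOXB6 from -0.78 to 0.14. The MSX2 probe sets are given no range, since values at the control level allow only bounds. LHX2 was called lower on both of its probe sets, whereas DLX2 and DLX4 were each called on 1 of 2. Tested singly, at least 1 probe set of PAX2 and of PAX8 was called although the gene was not. In all, 37 of the 58 members read at or under 7.79, the median of all probe set means, in both lines. DLX4 and LHX2 were the called members among these 37, or 5.41%, beside 6.25% of all genes at or under that level in both lines. Nothing is read from this split, since a gene high in 1 line alone lies outside it.

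**Figure D4:**
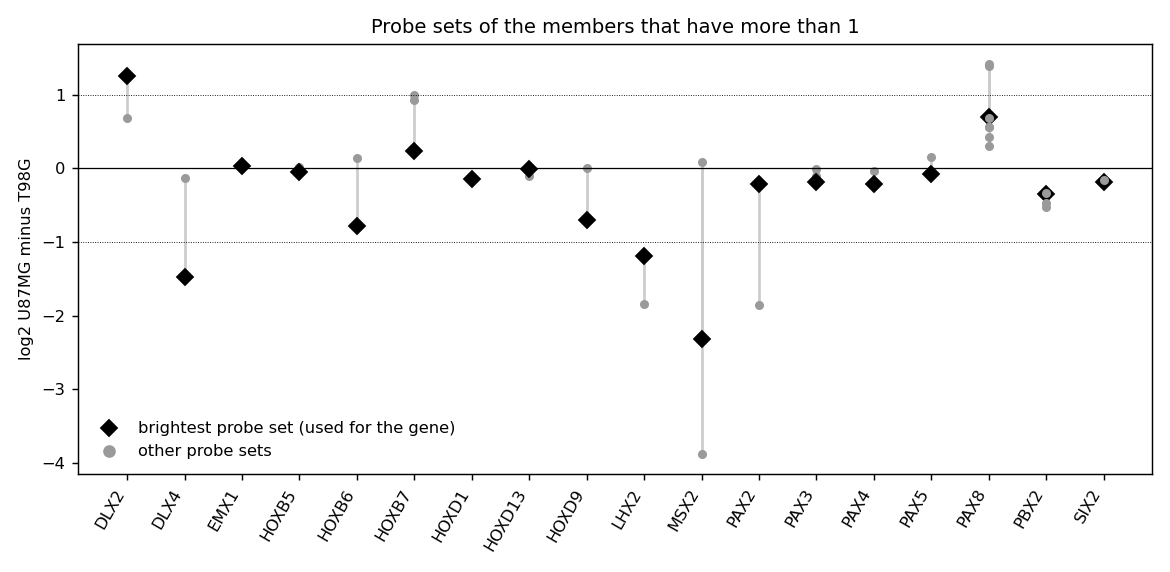
Log2 difference, U87MG minus T98G, of every probe set of the 18 members with more than 1, black diamonds for the brightest one used for the gene and grey circles for the others, with dotted lines at 2-fold. PAX2, DLX4, PAX8 and HOXB6 have probe sets that lie apart by more than those of HOXB7, and all 8 of PAX8 lie above 0. For MSX2 the lowest point is a bound and the highest comes from a probe set at the control level.

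Other homeobox genes outside these families also differed in both directions. Of 72 listed, 57 were measured, with 8 higher and 4 lower in U87MG and a median of log2 0.02. Thus 21.1% were called, beside 13.6% of all genes. PRRX1, a mesenchymal homeobox gene, read 5.21, 4.68 and 5.27 in T98G and 10.56, 10.42 and 10.32 in U87MG, and was 41.5-fold higher (log2 5.38, SE 0.16, adjusted p = 1.00e-08). HOPX, which encodes a small homeodomain protein that does not bind DNA, was 15.7-fold higher (8.70 ± 0.25 against 4.72 ± 0.03). NKX2-2, of ventral neural tube and oligodendrocyte precursors, was 9.17-fold lower (4.34 ± 0.14 against 7.53 ± 0.26), and PITX1, of the hindlimb, 4.92-fold lower (8.68 ± 0.03 against 10.98 ± 0.13). Of 4 measured TALE genes among 5 listed as further partners, TGIF2, a repressor in transforming growth factor beta signalling, was 2.51-fold lower, limma called 0 higher, and 2 had an unadjusted p under 0.05. PKNOX1, another partner of PBX proteins, had log2 -0.13 (adjusted p = 0.421).

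Polycomb and Trithorax regulators of HOX chromatin were called at about the share of all genes. Of 35 measured Polycomb and Trithorax genes among 45 listed, whose products keep HOX genes silent or active, 1 was higher and 4 were lower in U87MG (median log2 -0.11), which is 14.3% beside 13.6% of all genes. MTF2, a Polycomb accessory protein, was 3.95-fold lower with all 5 probe sets between log2 -2.29 and -1.54, and KMT2A, the Trithorax methyltransferase MLL1, was 2.56-fold lower. AFF1, a fusion partner of KMT2A in leukaemia, was higher by 2.24-fold, although the lowest of its 3 probe sets had log2 0.23. Retinoic acid, made from vitamin A, activates anterior HOX genes, and of 16 measured genes of its supply and receptors among 21 listed, 3 were higher and 4 lower (median log2 -0.06), or 43.8% called. ALDH1A3, which makes retinoic acid, was 10.4-fold higher in U87MG (13.36 ± 0.06 against 9.98 ± 0.15). ALDH1A1, another such enzyme, was at least 15.8-fold lower (4.08 ± 0.29 against 8.14 ± 0.38), a bound because 2 U87MG arrays read under 4.03 and were set to it. STRA6, which brings retinol into cells, was 12.6-fold lower, and DHRS3, which returns retinal to retinol, 2.84-fold higher.

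Cofactors of sine oculis, PAX and LIM proteins had 1 higher and 4 lower of 14 measured among 16 listed (median log2 -0.25). This is 35.7% called, beside 13.6% of all genes, and none of these list shares was tested against other genes. LDB2, which bridges LIM homeodomain proteins such as LHX2, read 8.52, 7.94 and 8.54 in T98G and 4.89, 4.68 and 4.42 in U87MG and was 12.8-fold lower (log2 -3.67, SE 0.18, adjusted p = 2.20e-07). LMO2, a LIM-only protein that competes for the same bridge, was 5.64-fold higher (8.70 ± 0.54 against 6.20 ± 0.14). EYA1, the phosphatase partner of SIX2 and its relatives, was 3.16-fold lower (7.52 ± 0.13 against 9.18 ± 0.25).

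**Figure D5:**
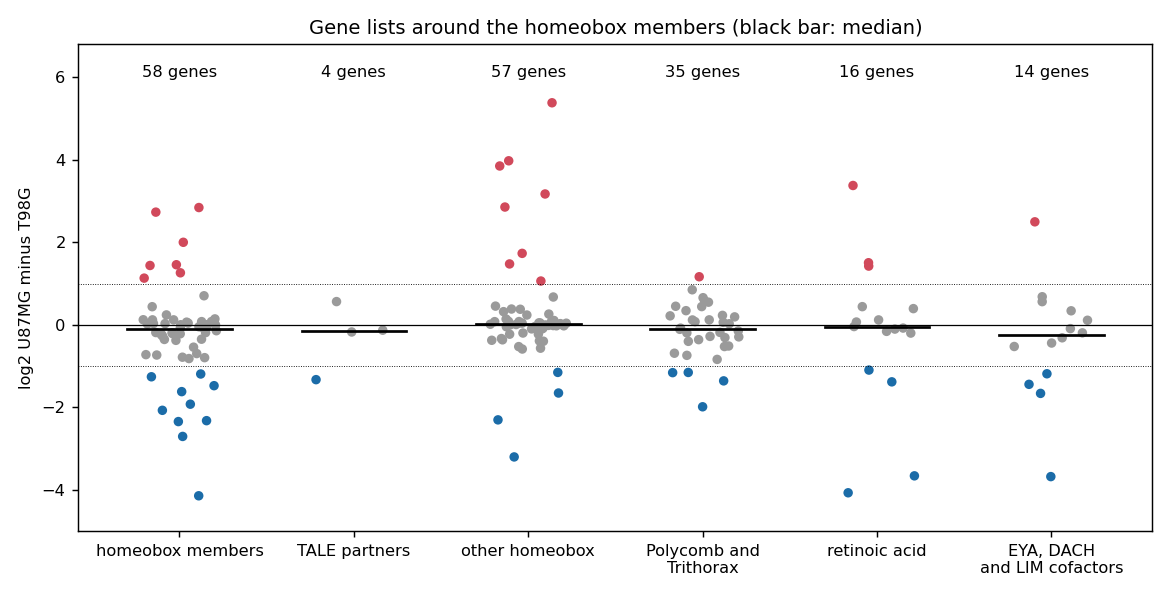
Log2 difference, U87MG minus T98G, of each measured gene in the homeobox families and in the 5 lists of related genes, with a black bar at each median and dotted lines at 2-fold; red genes were called higher, blue lower and grey neither. The medians run from log2 -0.25 to 0.02, PRRX1 lies at log2 5.38 and HOXC10 at log2 -4.14, and the ALDH1A1 point near HOXC10 is only a bound.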

How the data were processed

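Total RNA was labelled with biotin in a one-cycle amplification and hybridised, per the labels' protocols. Log2 expression values of each probe set were deposited by the authors. The submitters' processing notes list RMA and limma; their versions and settings are not given in the sources used here. The RMA method equalises intensity distributions and compresses differences of dim transcripts. Gene names came from the platform annotation, and symbols were updated through Entrez identifiers to RefSeq (GRCh38.p14). Of 22277 probe sets, 19064 had 1 listed gene, and 3 that list HOXD3 and HOXD4 together were left out with the others listing several. The lines were compared with limma 3.58.1 (R 4.3.3) over 11963 genes (two-sided, Benjamini-Hochberg over all genes). Called means an adjusted p under 0.05 and at least 2-fold. Detection calls were not used here, and values near 4.03, the highest Trp control, carry little information. Levels were set side by side to pick the brightest probe set, to sum markers, and to place genes beside the controls or the median. No level of 1 gene was tested against that of another.

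On simulated data with the real means and residual SDs of the 11963 genes, the comparison recovered 96 of 100 changes of log2 1.5 and 100 of 100 changes of log2 3, and it made 2 false calls. Noise was drawn independently and normally, without array or culture effects, and no true change smaller than log2 1.5 was simulated. These counts are therefore no error rate for the called members, some of which differ by less, such as LHX6 (log2 1.13) and LHX2 (log2 -1.19). Precision is limited by the 3 arrays per line, with a median residual SD of 0.146 (log2). The members, lists and tests were chosen with earlier results of these data known. Named genes were all called members, the member furthest from 0 in families or clusters without one, the 2 members nearest the threshold on each side, and up to 2 called genes per direction of each list; other members named, the further genes PKNOX1 and those of the marker lists were picked after their values were seen. Alternatives were other thresholds, a filter on dim probe sets, a lower limit at the control level, the mean of probe sets, probe sets singly, removal of multiply matching probe sets (identifiers ending in _x_at, _s_at or _a_at), repeated normalization, a variance trend, a replicate block and each array left out.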

Additional observations from a re-analysis of the deposited data

How the results depend on the processing

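All 17 called members kept their call and direction with an adjusted p under 0.01, values raised to the highest control, another centring or quantile step, a robust variance with intensity trend, and each array left out. Their largest limma adjusted p was 0.000197 (IRX5), so the stricter threshold could remove none. None of their values lay under the highest control, so raising values left their differences unchanged. Without 1 array in turn the counts stayed at 7 higher and 10 lower, those of HOX genes at 1 and 5, and those of Polycomb and Trithorax genes lower at 3 to 4 and other homeobox genes higher at 7 to 8. Replicate numbers are shared between the lines, and the deviations of same-numbered arrays were weakly and positively correlated (0.154, 0.0680 and 0.0448). These values cannot show whether same-numbered arrays were handled together. With the replicate block the counts were again 7 higher and 10 lower, and no call changed. A 3-fold minimum left 3 members higher, of which 2 were outside the HOX clusters, and 3 lower outside the HOX clusters. Among the lists it left 0 TALE partners lower, 0 Polycomb and Trithorax genes higher and 1 lower, 1 retinoic acid gene higher and 2 lower, and 2 cofactors lower. With no fold minimum, 18 members were lower, 10 of them HOX genes and 8 of other families. Other homeobox genes then numbered 8 lower, TALE partners 1 higher, Polycomb and Trithorax genes 7 higher and 12 lower, and cofactors 3 higher and 7 lower. A 1.5-fold minimum gave 16 members lower, 9 of them HOX genes, 3 Polycomb and Trithorax genes higher and 7 lower, and 2 cofactors higher. These shifts follow from the thresholds themselves. The filter on dim probe sets kept 21 of the 58 members, left DLX4 and LHX2 without a value and gave 3 lower outside the HOX clusters, 0 TALE partners lower and 2 other homeobox genes lower. Averaging the probe sets of each gene lost DLX2 (0.98) and DLX4 (-0.80), called PAX2, and gave 0 Polycomb and Trithorax genes higher and 2 retinoic acid genes lower. Without multiply matching probe sets 45 members were measured. HOXC13, MEIS2, MSX1 and PAX6 had no value, MSX2 turned to log2 0.089 on its probe set at the control level, and PAX2 was called. The lists then had 0 TALE partners lower, 3 other homeobox genes higher, 2 retinoic acid genes lower, and 0 cofactors higher and 1 lower. Dim probe sets limit what these arrays can show: a member that did not pass the test near 4.03 was not shown to be equal.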
